A study of Caenorhabditis elegans with 2 samples.

Results

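The genes of 3 structural RNAs were examined: rpr-1, which encodes the RNA of RNase P, mrpr-1, which encodes the RNA of RNase MRP, and yrn-1, which encodes the Y RNA of the worm. They were taken by name and make up 3 of 46890 annotated nuclear genes, and 3 of 660 genes in the RNA polymerase III (Pol III) classes compared, the others being 612 tRNA, 24 U6 snRNA, 16 5S rRNA and 5 SRP RNA genes. The chromatin of whole young adult Caenorhabditis elegans was immunoprecipitated for RPC-1, which is the largest Pol III subunit, and sequenced (ChIP-seq). Both libraries came from strain YL517, a transgenic line of mixed sex that stably expresses RPC-1 fused at its C-terminal end to GFP-FLAG, and they are biological replicates 1 and 2 of 1 group. One label spells the target PRC-1, whereas the antibody and strain labels name rpc-1. How the cultures were grown, the worms' exact age and the site of the inserted transgene are not stated in the labels. Whole worms mix all tissues, so the peaks do not say in which cells the polymerase was bound. No second condition was analysed, so no test between conditions was possible, and none was made over genes, which are not replicates.

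RNase P cuts the leader from the 5′ end of tRNA precursors, and RNase MRP, which shares most of its proteins with RNase P in yeast and human cells, cuts ribosomal RNA precursors. Y RNAs are small RNAs bound by the Ro60 protein, ROP-1 in worms. In animals the genes of these RNAs are transcribed by Pol III from a promoter that lies before the gene, with a proximal element bound by the SNAPc complex and a TATA box, as at the U6 snRNA gene. tRNA genes instead carry their promoter inside the transcribed region, as an A box and a B box.

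The 80 bases before the start are shown for mrpr-1 and yrn-1, and for the U6 genes W05B2.8 and F54D8.7, because the same spaced letters stand in all 4. Sequences are from the RefSeq assembly WBcel235, the build that ce11 names, 5′ to 3′ on the strand of the gene. Capitals mark the ends of an upstream element (AAC, any 8 bases, TGTC) and the letters TATATA. The stretch of mrpr-1 is chrII:7200153-7200232 on the plus strand, that of yrn-1 is chrIV:7499428-7499507 on the plus strand, that of W05B2.8 is chrIII:10989599-10989678 on the plus strand, and that of F54D8.7 is chrIII:5080899-5080978 on the minus strand. The 2 U6 genes are those of highest signal value whose sequence is shown here.
mrpr-1: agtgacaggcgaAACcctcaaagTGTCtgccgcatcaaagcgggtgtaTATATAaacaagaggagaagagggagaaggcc
yrn-1: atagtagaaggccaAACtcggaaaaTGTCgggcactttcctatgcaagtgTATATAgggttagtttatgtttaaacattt
W05B2.8: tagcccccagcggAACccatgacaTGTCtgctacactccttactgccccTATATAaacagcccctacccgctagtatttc
F54D8.7: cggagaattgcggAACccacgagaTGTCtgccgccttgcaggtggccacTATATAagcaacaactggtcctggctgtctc

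The transcribed regions of mrpr-1 and yrn-1 are shown with the 20 bases that follow them, because the RPC-1 summit lay at different places in them. Capitals mark the span that held the summit in the 4 peak lists. The mrpr-1 stretch is chrII:7200233-7200438 and the yrn-1 stretch is chrIV:7499508-7499632, both on the plus strand of WBcel235.
mrpr-1: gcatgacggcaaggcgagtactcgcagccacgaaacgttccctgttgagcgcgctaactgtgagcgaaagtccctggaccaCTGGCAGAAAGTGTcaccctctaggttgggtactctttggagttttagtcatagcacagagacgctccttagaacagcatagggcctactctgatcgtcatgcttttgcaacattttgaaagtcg
yrn-1: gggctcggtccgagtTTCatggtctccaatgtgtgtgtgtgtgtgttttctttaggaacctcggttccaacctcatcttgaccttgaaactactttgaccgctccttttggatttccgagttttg

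All 3 genes were occupied: each gene body, with 100 bp added at either end, overlapped a peak of the optimal list, which holds the peaks kept by the irreproducible discovery rate (IDR), a measure of how alike peaks rank in the replicates. Of the other 46887 annotated nuclear genes, 5.63% (2641) met the same rule. The summit itself lay within 100 bp of the body at all 3 genes, and did so at 4.27% (2000) of the others. The share of genes occupied was 97.2% for tRNA (595 of 612), 70.8% for U6 (17 of 24), 5 of 5 for SRP RNA and 3 of 16 for 5S rRNA. Repeated sequence can hide peaks, and whether it did so in these classes was not tested. Among the other snRNA and spliced leader genes, which are mostly transcribed by RNA polymerase II, it was 21.0% (22 of 105).

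The signal value is the authors' score for a peak. It has no fixed range and can be compared only within a list. The optimal and the pooled list give the same value for each of these peaks, so they are not separate measurements. At rpr-1 the signal value was 3487 in the optimal list, where the peak ranked 288 of 2123, 1895 in replicate 1 (rank 335 of 26455) and 1589 in replicate 2 (rank 208 of 27629). At mrpr-1 it was 3121 in the optimal list (rank 341), 1809 in replicate 1 (rank 370) and 1315 in replicate 2 (rank 309). At yrn-1 it was 2971 in the optimal list (rank 371), 1689 in replicate 1 (rank 398) and 1281 in replicate 2 (rank 323). The order rpr-1, mrpr-1, yrn-1 held in every list, but in replicate 1 the highest value was only 1.12 times the lowest. The ratio of rpr-1 to mrpr-1 was 1.05 in replicate 1 and 1.21 in replicate 2 (mean log2 ratio 0.17 ± 0.15, SD, n = 2), and that of mrpr-1 to yrn-1 was 1.07 and 1.03 (0.07 ± 0.04). Whether neighbours in this order differ was not tested.

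Set against the tRNA genes, the 3 genes lay near the middle of the distribution. The optimal signal value of rpr-1 was above that of 59.8% of the 595 occupied tRNA genes, that of mrpr-1 above 51.4% and that of yrn-1 above 47.1%, and the tRNA median was 3066 (quartiles 2027 and 4073). Among the 2123 strongest peaks of each replicate, these shares were 52.4% in replicate 1 and 73.2% in replicate 2 for rpr-1, 46.8% and 57.2% for mrpr-1, and 43.1% and 54.9% for yrn-1. Whether a gene fell above or below the tRNA median therefore changed with the replicate for mrpr-1 and yrn-1. Within the Pol III classes compared, the non-member genes nearest in signal value were all tRNA genes: Y105C5B.t3 (3498) and B0212.t1 (3486) around rpr-1, C06E4.t1 (3122) and K08H2.t1 (3118) around mrpr-1, and F08F1.t1 (2982) and F47G6.t1 (2960) around yrn-1.

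The U6 genes spread much more widely than the 3 genes, with optimal signal values from 161 to 6175 and a median of 832. The occupied tRNA genes had a wider range still, from 60.0 to 8035. Of the 17 occupied U6 genes 15 lay below rpr-1, 14 below mrpr-1 and 13 below yrn-1. W05B2.8 (6175) and F54D8.7 (3819) were above every one of the 3 genes, and 13 U6 genes were below all of them. The median was 239 for the 5 SRP RNA genes and 237 for the 3 occupied 5S genes, and no gene of either class was above yrn-1. The 5S gene rrn-4.15 came near it, at 2771 (rank 404). Whether repeated sequence lowered these values was not tested.

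**Figure D1:**
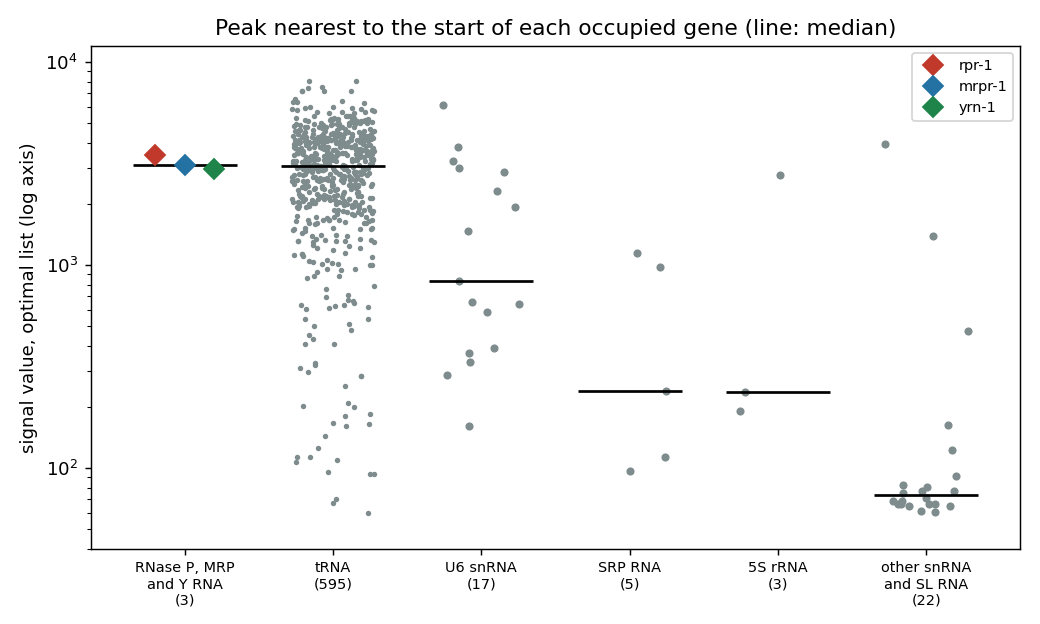
Signal value in the optimal list (log axis) of the peak nearest to the start of each occupied gene, for the RNase P, MRP and Y RNA genes (diamonds) and then for each other class (points, 1 per gene), with the median as a line and the number of occupied genes in brackets. The 3 genes lie between 2971 and 3487, close to the tRNA median of 3066. The tRNA genes reach from 60.0 to 8035 and the U6 genes from 161 to 6175.

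Signal values were compared between the replicates next. The ratio of replicate 1 to replicate 2 was 1.19 at rpr-1, 1.38 at mrpr-1 and 1.32 at yrn-1, against a median of 1.48 (quartiles 1.27 and 1.67) over 2114 optimal peaks found in both lists. This ratio carries the depth of each library, which is unknown, so it is read only against the other peaks. Of those peaks 19.0% had a lower ratio than rpr-1, 35.5% a lower ratio than mrpr-1 and 29.0% a lower ratio than yrn-1, so rpr-1 stood relatively higher in replicate 2 and lay outside the quartiles. Most optimal peaks were weaker than the 3 genes (median signal value 355), and ratios at peaks of like signal value were not compared. Peaks were matched by overlap, and in some pairs the summits lay far apart.

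**Figure D2:**
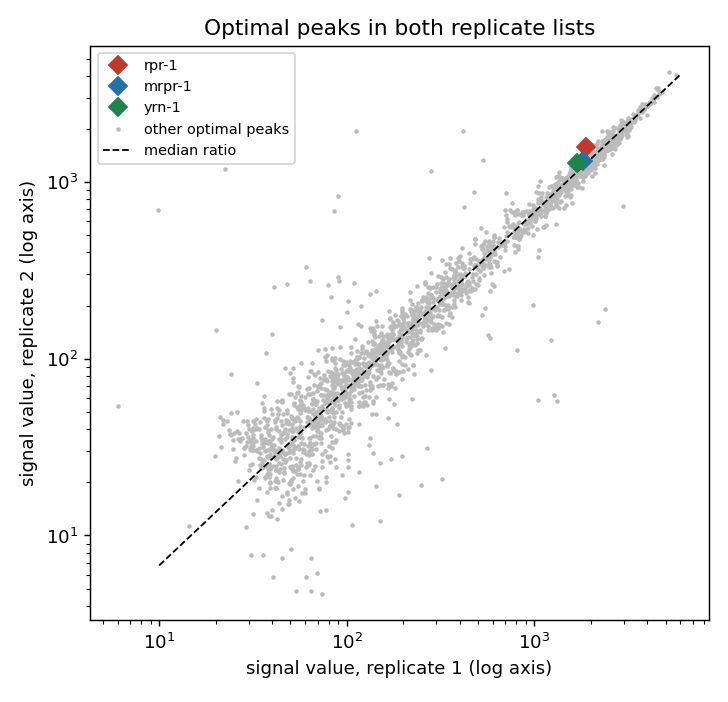
Signal value in replicate 1 (x, log axis) and replicate 2 (y, log axis) for the 3 genes (diamonds) and the other optimal peaks matched in both lists (grey points), with the median ratio of 1.48 as a dashed line. The diamonds lie among the strong peaks, slightly above the line, at ratios of 1.19 to 1.38.

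The summits took different places in the genes. At rpr-1 the summit lay 17 bp after the gene start in the optimal list, 13 bp in replicate 1 and 17 bp in replicate 2 (mean 15 ± 2.83 bp, SD, n = 2 replicates), where 0 is the first base of the gene. At yrn-1 it lay 16 bp after the start in the optimal list, 17 bp in replicate 1 and 15 bp in replicate 2 (mean 16 ± 1.41 bp, SD, n = 2). At mrpr-1 it lay further in, at 94 bp in the optimal list, 94 bp in replicate 1 and 81 bp in replicate 2 (mean 87.5 ± 9.19 bp, SD, n = 2), which in the optimal list is 50.5% of the way along a gene of 186 bp. The replicate summits were 4 bp apart at rpr-1, 13 bp at mrpr-1 and 2 bp at yrn-1, against a median of 10 bp (upper quartile 34 bp) over the 2114 matched peaks. The median signal value of the optimal list was 355, so most of these peaks were weaker than the 3 genes. Summit distances at peaks of like signal value were not compared.

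Against isolated tRNA genes, that is, genes more than 1 kb from any other tRNA gene, the mrpr-1 summit lay many bases further from the start. The median offset of the 363 occupied ones was 13 bp (quartiles 11 and 16 bp). A summit at or beyond the offset of mrpr-1 was found at 4.13% of them (15 of 363), at or beyond that of rpr-1 at 23.1% (84) and at or beyond that of yrn-1 at 27.8% (101). Of the 17 occupied U6 genes, with a median offset of 12 bp (quartiles 5 and 23 bp), none reached the offset of mrpr-1, 7 reached that of rpr-1 and 8 that of yrn-1. The genes differ in length, with a median of 73 bp for these tRNA genes and 102 bp for the occupied U6 genes, so an offset of 94 bp lies past the end of most of the tRNA genes. As a share of gene length the summit lay at 6.72% in rpr-1, 50.5% in mrpr-1 and 15.2% in yrn-1, against a median of 17.8% in the isolated tRNA genes and 11.9% in the U6 genes. By this measure 12.4% of the isolated tRNA genes (45 of 363) and 4 of 17 U6 genes had a summit at or beyond that of mrpr-1, 92.8% (337) and 11 of 17 at or beyond that of rpr-1, and 71.6% (260) and 8 of 17 at or beyond that of yrn-1. In replicate 1 alone the rpr-1 summit was 1 bp before the tRNA median of that list instead of after it.

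**Figure D3:**
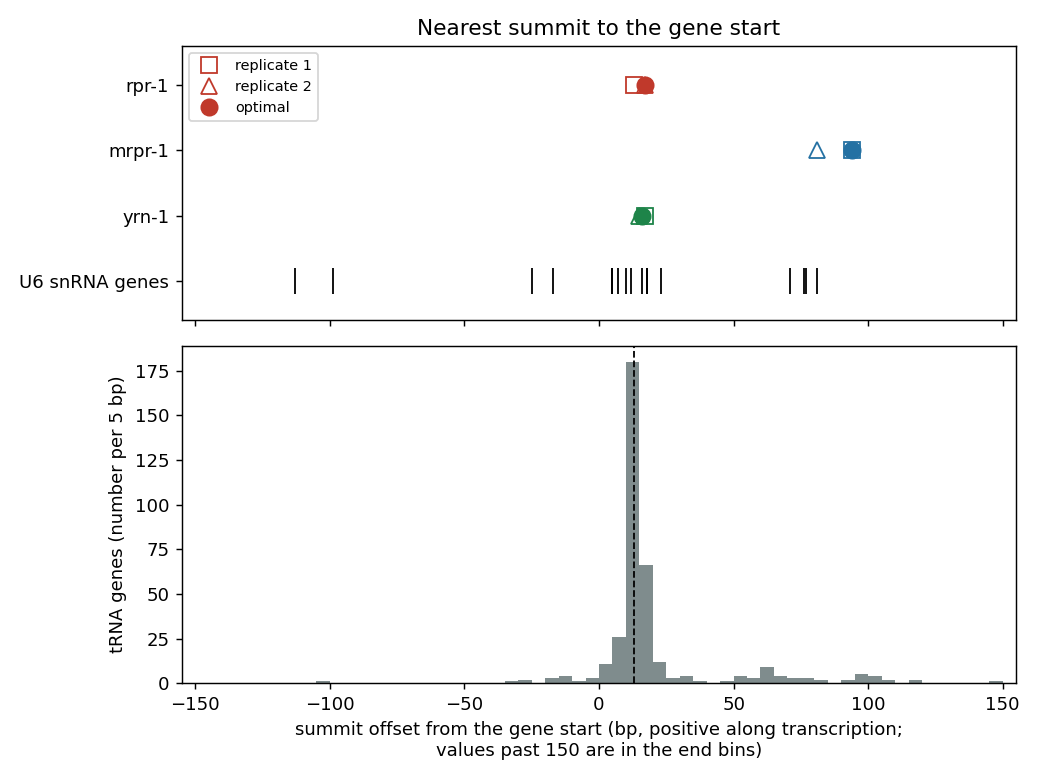
Offset of the nearest summit from the gene start (bp, positive along transcription): above, the 3 genes in the optimal list and in each replicate (open markers) and the 17 occupied U6 genes in the optimal list (ticks); below, the number of isolated tRNA genes per 5 bp, with their median of 13 bp dashed. The rpr-1 and yrn-1 summits lie at 13 to 17 bp and the mrpr-1 summits at 81 to 94 bp.

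The gene rpr-1 (chrI:13463955-13464207, plus strand, 253 bp) lies in an intron of the protein-coding gene ints-8, on the opposite strand. Its optimal peak was 893 bp wide, reaching 398 bp before the gene and 242 bp past its end. Replicate 1 alone had a second summit in the same gene, 243 bp after the start, with a signal value of 172 (rank 1191). The gene mrpr-1 (chrII:7200233-7200418) is intergenic. Its peak was 945 bp wide and also overlapped pcrg-1, a protein-coding gene that starts 131 bp downstream on the same strand, while E04F6.6 lies 668 bp away. The gene yrn-1 (chrIV:7499508-7499612, 105 bp) lies in an intron of F55G1.15, on the opposite strand, and an exon of the non-coding gene F55G1.20 overlaps it in antisense. Its peak was 859 bp wide. ChIP-seq peaks carry no strand, so signal from overlapping genes cannot be told apart. The peaks were wider than 80.6% of optimal peaks at rpr-1, 86.1% at mrpr-1 and 76.1% at yrn-1. Most optimal peaks were weaker than these, and widths at peaks of like signal value were not compared.

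A peak was counted as within 5 kb where any part of its interval came that close to the gene, so that 1 summit, of yrn-1 in replicate 2, lay 5101 bp away. Within 5 kb of each gene the optimal list held only the peak at the gene itself. The pooled list, which includes weak peaks and background, held 4 peaks around rpr-1, 5 around mrpr-1 and 3 around yrn-1. Replicate 1 held 4, 7 and 4 for the same genes, and replicate 2 held 2, 3 and 2. Away from the genes, the highest signal value in the pooled list was 9.54 around rpr-1 (rank 17097 of 24907, 3659 bp before the start), 18.6 around mrpr-1 (rank 5796, 4781 bp before the start, in the non-coding gene E04F6.17) and 11.1 around yrn-1 (rank 13326, 4642 bp before the start). The peak at the gene was 366 times as high at rpr-1, 168 times at mrpr-1 and 267 times at yrn-1.

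The next optimal summit was 15.6 kb away from rpr-1 (signal value 61.3), 16.1 kb from mrpr-1 (5430) and 74.5 kb from yrn-1 (7827). Within the Pol III classes compared, the nearest other gene was a tRNA gene in each case. It was T04D3.t2 at 133 kb from rpr-1, C52E12.t2 at 197 kb from mrpr-1 and rtw-6 at 155 kb from yrn-1. The next optimal summits all lay nearer than these genes. The sequence of the 3 genes was unique: all 418, 351 and 270 words of 36 bases in and around rpr-1, mrpr-1 and yrn-1 occurred once in the genome.

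**Figure D4:**
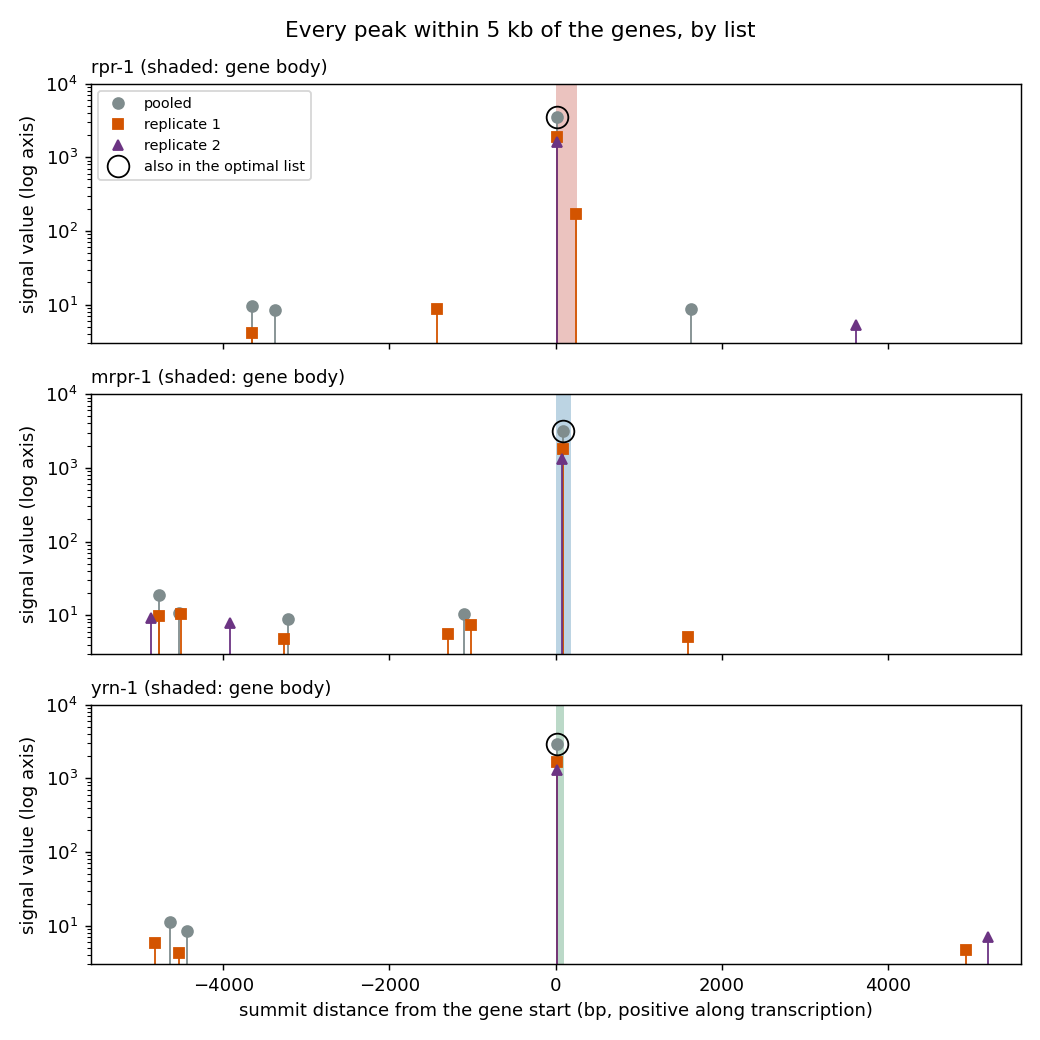
Signal value (log axis) of every peak within 5 kb of each gene, by its summit distance from the gene start (bp), in the pooled list and in both replicates, with a ring where the peak is also in the optimal list and shading over the gene body. In each panel the highest peak of every list is the one at the gene, at 1281 or more, and every peak outside the gene is at 18.6 or less.

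Upstream of the start, all 3 genes held the element and TATATA at the same spacing. The element began 66 bp before the start of rpr-1, 68 bp before that of mrpr-1 and 66 bp before that of yrn-1, and TATATA began 36 bp after the start of the element in each. The same pair stood before 11 of 24 U6 genes and the element before 13 of 24, starting 66 or 67 bp before the gene. The letters and the spacing were chosen by reading these genes, so their presence in these 2 classes is a description and supports nothing. In windows of the same 100 bp, the element was found on the sense strand before 6 of 612 tRNA genes (0.98%) and 87 of 19971 protein-coding genes (0.436%), and before 31 of 105 other snRNA and spliced leader genes (29.5%). The pair at that spacing was found before none of the tRNA, SRP RNA, 5S rRNA, other snRNA and spliced leader or protein-coding genes.

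**Figure D5:**
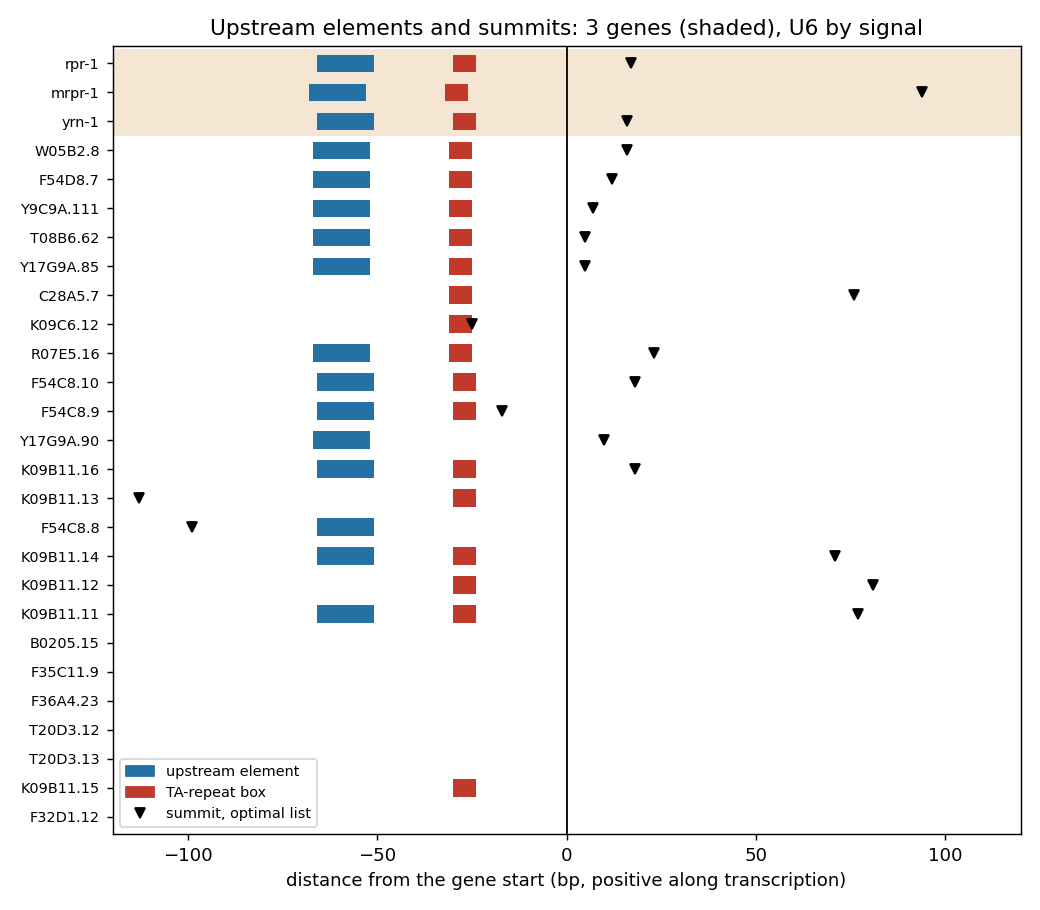
Position of the upstream element (AAC, any 8 bases, TGTC), of TATATA (TA-repeat box) and of the optimal summit relative to the gene start (bp), for the 3 genes (shaded) and below them the 24 U6 genes in order of signal value, unoccupied genes last. The element starts 66 to 68 bp before the start of the 3 genes and 66 or 67 bp before 13 U6 genes. The mrpr-1 summit lies further downstream of the start than any U6 summit, in a longer gene. On the upstream side, U6 summits reach −113 bp.

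TATATA stood before all 3 genes, 16 of 24 U6 genes, 2.12% of tRNA genes (13) and 5.66% of protein-coding genes (1131). The words CCTATATA and CTATATAA, which stand before 12 of 24 U6 genes, were looked for with at most 1 mismatch. Both were found before rpr-1 and only the second before mrpr-1, and neither was found before yrn-1. Among tRNA genes the first was found at 4.25% and the second at 5.88%, and among protein-coding genes at 4.23% and 8.47%, so these words are not rare.

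Inside the genes only the B box was searched for, not the A box. The B box GTTCNANNC with A or G at base 5, searched on both strands of the gene and 100 bp on each side, was in none of the 3 genes and in none of the 24 U6 genes, but in 96.6% of tRNA genes (591 of 612). With any base at that place it was found in yrn-1, from 63 to 71 bp after the start on the sense strand. A run of at least 4 T, the letters at which Pol III stops, ended within 50 bp after the end of all 3 genes, of 24 of 24 U6 genes and of 99.0% of tRNA genes, and such a run was also found after 64.8% of protein-coding genes. At rpr-1 and mrpr-1 the first run crossed the annotated end, reaching 3 bp and 2 bp past it, and at yrn-1 it began 1 bp past the end.

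Among the U6 genes, those with the pair were compared by their levels alone. All 11 with the pair were occupied, with signal values from 161 to 6175 and a median of 1466, and 6 of 13 without it were occupied, with values from 287 to 2318 and a median of 515. The 3 genes lay above both medians. The pair was read from these same genes, so these values are a description and do not test whether it goes with occupancy. The 17 occupied U6 genes had 17 different peaks.

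The genes of proteins that work with these RNAs or with Pol III were searched for peaks lying at most 500 bp from a transcript start. None of the 8 had an optimal peak, and 2.83% of protein-coding genes did (565 of 19973). Of these 8, rop-1 (Ro60, which binds Y RNA), rpc-1 itself and brf-1 (a subunit of TFIIIB) had no peak in the pooled list either. Weak pooled peaks stood at mafr-1, the Pol III repressor MAF1 (22.8, rank 4471), hoe-1, the RNase Z of the tRNA 3′ end (15.2, rank 7848), tbp-1, the TATA-binding protein (13.2, rank 9949), popl-1, a protein of RNase P and MRP (9.32, rank 17745) and snpc-4, a subunit of SNAPc (9.18, rank 18172). All 5 lay below the lowest signal value of the optimal list, 60.0. The share of all protein-coding genes with a pooled peak was not computed. The pooled counts are therefore not read as a trait of these 8 genes.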

How the data were processed

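Peak lists on the ce11 build were used, as deposited by the authors: 1 per replicate, 1 from pooled alignments and the optimal list, per the deposited file descriptions. For the aligner, the peak caller, their versions, the IDR threshold and the depth, nothing is stated in the labels or files used, so no counting interval can be given. The authors' signal value is a score with no fixed range. The deposited −log10 q value was 3.78 for all 2123 optimal peaks and was not used for ranking. The ce10 lists and the control libraries were not analysed here.

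Genes and sequence came from RefSeq WBcel235 (no peak ran past a chromosome end) and exons and transcript starts from the Ensembl annotation. Each gene was given the overlapping peak with the summit nearest to its start. Coordinates are 1-based. U6 genes were typed by conserved words, of which a second was added after snRNA sequences had been seen. The upstream element was chosen by reading the sequences before the 3 genes and the U6 genes, in addition to the search for words shared by U6 genes, which found neither word at yrn-1. Its first form required C at base 5 and was loosened because it missed some U6 genes. The genes named were the 3 members, the genes that hold, overlap or neighbour them, the nearest Pol III genes in signal value and 8 partner genes, plus the 2 U6 genes shown. The members and lists were chosen with earlier results of these data known. Python 3.11.15, numpy 2.4.6, blastn 2.17.0 and matplotlib 3.10.9 were used, and the search and offset steps were tested on simulated data. Alternatives changed the overlap rule, the peak chosen, the threshold, the motif strand and the replicates used.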

Additional observations from a re-analysis of the deposited data

How the results depend on the processing

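All 3 genes stayed occupied with no widening, with a summit within 100 bp, with at least 50% of the body covered, with only the 1061 strongest optimal peaks, and in each replicate alone. With 1 replicate left out, the summit offset ranged from 13 to 17 bp at rpr-1, from 81 to 94 bp at mrpr-1 and from 15 to 17 bp at yrn-1. The offset minus the tRNA median was 4 bp at rpr-1, with a range of −1 to 3 bp, so its sign turned without replicate 2. It was 81 bp at mrpr-1 (range 67 to 80 bp) and 3 bp at yrn-1 (range 1 to 3 bp). With the offset taken as a share of gene length, an alternative chosen after seeing the data, the isolated tRNA genes with a summit at or beyond that of the gene became 92.8% for rpr-1, 12.4% for mrpr-1 and 71.6% for yrn-1, against 23.1%, 4.13% and 27.8% in bp; the genes differ in length. The cause of the changes with the replicate was not tested. The share of tRNA genes of lower signal value moved to 54.3% for rpr-1, 45.0% for mrpr-1 and 41.0% for yrn-1 when the highest overlapping peak was taken for each gene, so mrpr-1 then fell below the tRNA median. Counting only summits within 2 kb left 5 of the 12 pooled peaks. The upstream element, chosen after the sequences had been seen, stood before 9 U6 genes when C was required at its base 5, against 13, and before all 3 genes in both forms. With U6 genes typed by the first word alone, an alternative chosen after seeing the data, 17 of 22 were occupied, against 17 of 24. No paired analysis was possible because all samples form 1 group. Depth is unknown, so the precision of each signal value is limited to what 2 replicates show.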

Other observations

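The element and TATATA at a spacing of 36 bp were searched for in the whole nuclear genome on both strands, a search added after the pattern had been read from these genes. It occurred at 22 sites, of which 3 were rpr-1, mrpr-1 and yrn-1 and 11 were U6 genes. An optimal summit lay within 150 bp of the expected start at 15 sites. The remaining site with a summit was the snoRNA gene W05B2.9, with a signal value of 286 (rank 1153) and a summit 65 bp after the expected start. The other 7 sites were at no annotated non-coding gene, and none of them had an optimal summit. Since 14 of the 22 sites are genes from which the pattern was read, these counts describe the pattern and do not test it.

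Before snoRNA genes the element alone was more frequent than before protein-coding genes, at 39 of 346 (11.3%) against 87 of 19971 (0.436%), and 1 snoRNA gene had the pair. Whether snoRNA genes with the element differ in occupancy was not tested. A sequence search with the yrn-1 gene found 1 further stretch in the genome, 29 bp long, and no further stretch was found for rpr-1 or mrpr-1.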
